A study of Rattus norvegicus with 36 samples.

Results

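The genes described here are 40 genes of the unfolded protein response and the integrated stress response, among 24275 genes counted in rat H9C2 cells. They were taken by gene symbol from a list of known pathway members, chosen with earlier results of these data known. All 40 were found, as 41 gene identifiers because Nupr1 is listed under a pair of identifiers. They were split by role into 18 genes on the ATF4 side, 3 sensors of the endoplasmic reticulum (ER) and 19 genes on the ATF6/XBP1 side. The second Nupr1 identifier stayed below 0.23 CPM in every library and was not tested, so each gene below has 1 set of values.

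When misfolded proteins gather in the ER, the sensors PERK (Eif2ak3), IRE1 (Ern1) and ATF6 (Atf6) are activated. PERK, like the kinases that sense amino acid shortage, haem shortage or viral RNA, phosphorylates the initiation factor eIF2, which slows most translation while the Atf4 mRNA is translated more, and ATF4 then drives genes of amino acid supply, tRNA charging and stress signalling such as Ddit3 (CHOP) and Trib3. IRE1 splices the Xbp1 mRNA, and the XBP1 and ATF6 proteins drive ER chaperones, disulfide isomerases and ER-associated degradation. In heart muscle this pathway is known for its activity in ischaemia. The counts are of mRNA per gene in bulk, so neither Xbp1 splicing nor phosphorylation nor protein amounts are part of them, and fewer cells of a type and less RNA per cell cannot be told apart.

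H9C2 is a rat cardiac myoblast line. Cells were transfected with 25 nmol/L of a mimic control (MC), a miR-125b mimic or 1 of 4 mimics of 3′ isomiRs, which are forms of the microRNA with a longer or shorter 3′ end, and were then kept in normoxia or hypoxia. All groups carried a mimic, and hypoxic cells were also moved to serum-free low-glucose medium whereas normoxic cells received fresh standard medium, so oxygen and medium cannot be told apart. Counts of 33 libraries in 11 groups of 3 were used: hypoxia with all 6 mimics, and normoxia with the 5 other than MC. The isomiRs are Plus A, with an added A, and 3 shortened forms named for the bases they lack. The libraries labelled Trim 1 were read as Trim A, those labelled Trim 2 as Trim AG and those labelled Trim 3 as Trim AGU, by the number of bases removed, and per-library counts of the normoxic MC group were not analysed here.

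The mimics share the seed (bases 2 to 8, in capitals) and differ only at the 3′ end, which is why they are shown together. The 22-base sequence is RefSeq's rat miR-125b-5p (GRCr8, chr11:29732588-29732609, plus strand), and the other ends were changed as the labels state.
miR-125b: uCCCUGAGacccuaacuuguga
Plus A: uCCCUGAGacccuaacuugugaa
Trim A: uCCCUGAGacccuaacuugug
Trim AG: uCCCUGAGacccuaacuugu
Trim AGU: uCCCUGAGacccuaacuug

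Of the 40 genes, 33 had a promoter in RefSeq's GRCr8 set of 33469 windows, each from 250 bases before to 50 bases after a gene's start. The ER stress response element, searched on both strands as CCAAT and CCACG with 9 bases between them, was present in 7 of 16 ATF6/XBP1-side genes (Hspa5, Hsp90b1, Xbp1, Dnajc3, Canx, Calr and Creld2) and in 0 of 16 ATF4-side genes, and 0.0657% of all windows held it. The second form of this element, ATTGG and CCACG with 1 base between them, was present in Herpud1, Dnajb11 and Hyou1 (0.0508% of all windows), and the unfolded protein response element TGACGTGG in Hyou1 alone among these genes (0.595%), where it overlapped a match to that second form. The C/EBP-ATF response element bound by ATF4, searched as TGATGNAA, was present in 4 of 16 ATF4-side genes (Trib3, Chac1, Nupr1 and Pck2) and in Herpud1, and in 3.98% of all windows. A match is a run of letters, not a tested binding site. The windows below show the matches, in capitals and read along the gene's own strand, for genes whose values are given in full. In the Herpud1 promoter both kinds of element lie within the same window, the ATF4-type element upstream of the ER-type element.
Hspa5, GRCr8 chr3:38452968-38452996, plus strand: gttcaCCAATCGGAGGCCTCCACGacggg
Xbp1, GRCr8 chr14:84604553-84604581, plus strand: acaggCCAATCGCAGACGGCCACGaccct
Dnajc3, GRCr8 chr15:102432529-102432557, plus strand: caaagCCAATCAGCGCCAACCACGaccca
Creld2, GRCr8 chr7:121789234-121789262, plus strand: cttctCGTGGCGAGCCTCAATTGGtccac
Herpud1, GRCr8 chr19:10614816-10614836, minus strand: cgctgATTGGGCCACGttggg
Herpud1, GRCr8 chr19:10614879-10614896, minus strand: gcgggTTGCATCAgcccg
Trib3, GRCr8 chr3:161275542-161275559, minus strand: caggtTTACATCAgccgg
Chac1, GRCr8 chr3:126795959-126795976, plus strand: cgccgTTGCATCActcct
Nupr1, GRCr8 chr1:190645944-190645961, minus strand: ccagaTTGCATCAgacag

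Library totals ranged from 28361216 to 42672584 counts, with the 3 hypoxic Trim AG libraries at 39940087 or more and all others at most 34505938. Replicates 2 and 3 of each of the 3 hypoxic trimmed groups held 4.45% to 5.70% mitochondrial counts, against 3.15% to 4.16% in the 24 libraries of other groups and 3.29% to 3.52% in replicate 1 of those 3 groups. The results for these groups are given with all 3 libraries. Counts with replicate 1 alone, a setting chosen after seeing the data, are added as values only, since a lone library gives no spread of its own and is assumed to vary like the other groups of the fit. Hypoxic Trim AGU replicate 2 had the fewest genes detected (16981). In normoxia, replicate 1 of the miR-125b and Plus A groups each stood with the other group for Cav1 and for the member Atf5. Of 8 hypoxia-inducible (HIF) targets tested, 4 were higher in hypoxia with Trim AG and 7 with each other mimic. Vegfa, also a HIF target, was counted with other ATF4-linked genes and is not among the 8. The muscle regulators Myod1 (19.9 to 138 CPM in group means) and Myog (11.3 to 352) were present. Of the cardiac markers, Tnnt2 was at 11.7 to 307 CPM, Gata4 at 9.18 to 15.1 and Tnni3 at 1.16 to 2.89, and Myh6, Myh7 and Nkx2-5 were below 1 CPM, and blood, epithelial, fat and glial markers (Ptprc, Epcam, Adipoq, Gfap) were below 1 CPM as well. Levels are in CPM, counts scaled to library totals. A gene was called when the adjusted p of edgeR's quasi-likelihood test was below 0.05 and the fold at least 1.5. Fold changes are on the log2 scale, with ± giving the standard error.

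Among the 40 genes, levels corrected for gene length and library size (FPKM) spanned a wide range in the hypoxic MC group. The highest were Atf5, a transcription factor related to ATF4, at 699 ± 12.99 FPKM (SD, n = 3), the ER calcium-binding chaperone Calr at 442 ± 5.76 and Atf4 itself at 429 ± 16.8. The major ER chaperone Hspa5 (BiP) stood at 222 ± 3.95 FPKM, Trib3 at 109.7 ± 3.71 and Ddit3 at 93.2 ± 3.38. The sensors were low, with Atf6 at 23.7 ± 0.435, Eif2ak3 at 8.75 ± 0.504 and Ern1 at 4.61 ± 0.133 FPKM. The lowest were Aldh18a1, which makes the precursor of proline, at 1.67 ± 1.37 and the stress factor Atf3 at 1.35 ± 0.165 FPKM. Aldh18a1 and Nupr1 each had libraries far above the other replicates of their group, and their values are given apart.

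**Figure D1:**
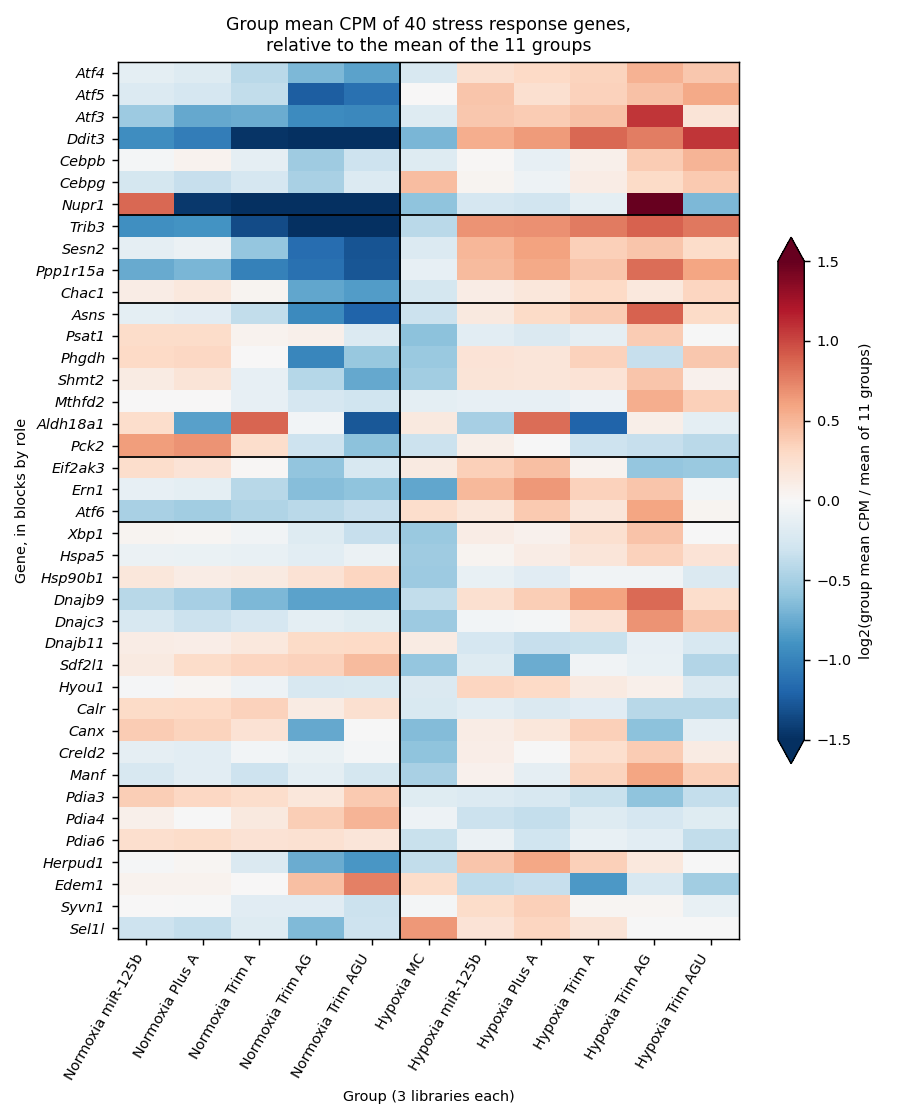
Mean CPM of the 40 genes in the 11 groups (3 libraries each), as log2 of the ratio to the mean of the 11 groups, with genes in blocks by role and a vertical line between normoxia and hypoxia. Ddit3, Trib3, Sesn2 and Asns are darkest blue in normoxic Trim AG and Trim AGU, Xbp1, Hspa5 and Creld2 are blue in hypoxic MC, and Pdia3 changes from red to blue between normoxia and hypoxia.

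In hypoxia, each of the 5 mimics up-regulated ATF4-side genes, the sensor Ern1 and a set of ER chaperones compared with MC, and few of the 40 genes were lower. These 5 comparisons share the same 3 MC libraries. With miR-125b, 14 of 40 genes were called higher and 1 lower, beside 9.43% and 12.5% of all genes tested. The counts were 15 and 1 with Plus A (10.5% and 14.4% of all genes), 19 and 1 with Trim A (12.4% and 15.7%), 19 and 2 with Trim AG (17% and 20.2%) and 21 and 0 with Trim AGU (11.4% and 12.4%). The median log2 fold change of the 40 genes lay between 0.44 and 0.63, and that of all genes between -0.02 and 0.00. When 1 library at a time was left out, 14, 12, 15, 18 and 12 of the called genes in the order above stayed called each time. Trim AGU depended most on single libraries: 13 genes were called without MC replicate 2 and 12 without MC replicate 3. The counts also depended on scaling. With library totals alone and no TMM factors, 14, 15, 16, 20 and 14 genes were called in either direction, in place of 15, 16, 20, 21 and 21. By mean CPM, some called genes lay less than 1.5-fold above MC. These were Hspa5 with miR-125b, Atf3 with Plus A and Cebpb with Trim AG. They were also Atf4, Sesn2, Ppp1r15a and Chac1 with Trim A, and Atf5, Sesn2, Shmt2, Mthfd2, Canx and Xbp1 with Trim AGU. Other genes moved in the same comparisons: 3 to 5 of 9 muscle genes were lower with each mimic, Actc1, Tnnt2 and Myog being lower with all 5, and 3 to 5 of 8 HIF targets were lower. Group means with MC and the range with the mimics were 33.3 and 0.29 to 1.45 CPM for Actc1, 307 and 15.7 to 47.8 for Tnnt2, and 352 and 11.3 to 63.9 for Myog. Of the other muscle genes, Myh6, below 1 CPM, was higher with miR-125b and Gata4 with Trim AG. Their part in the result was not tested. With replicate 1 alone of the trimmed groups, 18, 22 and 18 genes were called in place of 20, 21 and 21, and the part of the mitochondrial share was not tested further.

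On the ATF4 side, the number of 18 genes called higher was 7 under miR-125b, 8 under Plus A, 10 under Trim A, 12 under Trim AG and 13 under Trim AGU, and none was called lower. Trib3, a pseudokinase induced by ATF4 that feeds back on it, measured 233, 226 and 219.6 CPM with MC, 484, 485 and 472 with miR-125b and 446, 491 and 514 with Plus A. Trib3 was 494, 522 and 527 under Trim A, 583, 532 and 550.2 under Trim AG and 523, 530.1 and 508 under Trim AGU. Every mimic library lay above every MC library, and miR-125b raised Trib3 2.18-fold (1.12 ± 0.032 on the log2 scale, adjusted p = 6.6e-10). Ddit3, the transcription factor CHOP linked to cell death under prolonged stress, measured 94.4, 92.7 and 88.7 CPM with MC, 231, 212 and 206 with miR-125b and 217, 231 and 241 with Plus A. Ddit3 was 222, 299 and 288 under Trim A, 214, 285 and 255 under Trim AG and 218, 431 and 282 under Trim AGU. The mimic libraries were again all above MC, with the widest spread in Trim AGU, where replicate 2 stood highest. Ddit3 rose by 1.27 ± 0.046 with miR-125b (adjusted p = 3.6e-09) and by 1.92 ± 0.29 with Trim AGU (adjusted p = 0.0051).

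Atf4, whose product gives this side its name, measured 642, 667 and 625 CPM with MC, 914, 890.4 and 879 with miR-125b and 992, 912 and 897 with Plus A. Atf4 was 847, 1017 and 1001 under Trim A, 998, 1215 and 1054 under Trim AG and 854, 1221 and 938 under Trim AGU. All mimic libraries exceeded the MC libraries, but the fold reached 1.5 only in the trimmed groups, at 0.61 under Trim A, 0.82 under Trim AG and 0.80 under Trim AGU. Of these, Trim A was not called without MC replicate 3 or Trim A replicate 2 or 3, the value nearest 0 being 0.56. Trim AGU was not called without MC replicate 1, 2 or 3 or Trim AGU replicate 2 or 3, the value nearest 0 being 0.56 and the edgeR adjusted p up to 0.1. With miR-125b and Plus A the adjusted p passed at 0.51 and 0.56. Atf3, a stress-induced transcription factor, was low, at 4.56, 4.40 and 3.64 CPM with MC, 6.05, 7.23 and 5.75 with miR-125b and 6.35, 6.71 and 5.63 with Plus A. Atf3 was 6.25, 6.52 and 6.67 under Trim A, 10.5, 10.6 and 9.12 under Trim AG and 7.44, 4.52 and 4.55 under Trim AGU. Trim AG libraries were the highest, and the mimic and MC libraries overlapped only in Trim AGU, whose replicates 2 and 3 sat at the MC level. Atf3 was called for miR-125b (0.63), Plus A (0.59), Trim A (0.67) and Trim AG (1.33 ± 0.15), and the first 3 rested on single libraries. With miR-125b it was not called without MC replicate 3 or miR-125b replicate 2, the value nearest 0 being 0.53, with Plus A not called without MC replicate 3 or Plus A replicate 1 or 2, the value nearest 0 being 0.49, and with Trim A not called without MC replicate 3, the value nearest 0 being 0.57. Cebpb, a partner of ATF4 on DNA, was called higher with Trim AG (0.64) and Trim AGU (0.85), while Cebpg, another such partner, was lower with miR-125b (-0.38) and Plus A (-0.52) by adjusted p without reaching 1.5-fold.

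Sesn2, a regulator of nutrient signalling through mTORC1, measured 207, 209.9 and 207 CPM with MC, 328, 332 and 350.4 with miR-125b and 366, 357 and 364 with Plus A. Sesn2 was 341, 289 and 286 under Trim A, 366, 259 and 328 under Trim AG and 345, 248 and 272 under Trim AGU. It was up-regulated with every mimic, by 0.73 under miR-125b, 0.82 under Plus A, 0.60 under Trim A, 0.67 under Trim AG and 0.61 under Trim AGU, and the last 3 calls rested on single libraries. Trim A was not called without Trim A replicate 1, the value nearest 0 being 0.52, Trim AG not called without Trim AG replicate 1, the value nearest 0 being 0.57, and Trim AGU not called without MC replicate 1, 2 or 3 or Trim AGU replicate 1, the value nearest 0 being 0.50 and the edgeR adjusted p up to 0.071. Ppp1r15a (GADD34), which brings the phosphatase to eIF2, measured 120.4, 129 and 125 CPM with MC, 188, 198 and 183 with miR-125b and 192, 204 and 207 with Plus A. Ppp1r15a was 189, 178 and 179 under Trim A, 274, 216 and 239.8 under Trim AG and 229.8, 183 and 201 under Trim AGU. No mimic library overlapped MC, and the values ran highest in Trim AG (1.03 ± 0.092), while the Trim A call (0.59) was not called without MC replicate 1 or 3 or Trim A replicate 1, the value nearest 0 being 0.57. Chac1, which breaks down glutathione, measured 68.6, 77.3 and 69.2 CPM with MC, 93.8, 91.9 and 94.8 with miR-125b and 91.8, 101 and 97.4 with Plus A. Chac1 was 112, 104 and 103 under Trim A, 108, 84.2 and 96.9 under Trim AG and 119, 106 and 99.8 under Trim AGU. Its mimic libraries all exceeded MC, yet only Trim A (0.61) and Trim AGU (0.74) passed the fold limit, and Trim A was not called without MC replicate 1 or 3 or Trim A replicate 1, the value nearest 0 being 0.58.

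The enzyme genes of this side were called with different mimics. Asns, asparagine synthetase, measured 188, 190.2 and 191 CPM with MC, 264, 266 and 261 with miR-125b and 319, 283 and 269 with Plus A. Asns was 286, 327 and 316 under Trim A, 393, 484 and 438 under Trim AG and 251, 348 and 272 under Trim AGU. All mimic libraries lay above MC. Asns was highest with Trim AG, 2.42-fold above MC (1.27 ± 0.095, adjusted p = 1e-05), was also called with Plus A (0.64), Trim A (0.75) and Trim AGU (0.77), and stood at 0.51 with miR-125b. The Plus A call was not called without Plus A replicate 1, the value nearest 0 being 0.56, and the Trim AGU call not called without MC replicate 1, 2 or 3 or Trim AGU replicate 2, the value nearest 0 being 0.55 and the edgeR adjusted p up to 0.087. Phgdh, the first enzyme of serine synthesis, was called higher with miR-125b (0.79), Plus A (0.76), Trim A (0.95) and Trim AGU (1.12, not called without MC replicate 1, 2 or 3, the value nearest 0 being 0.84 and the edgeR adjusted p up to 0.056), and stood at 0.28 under Trim AG. Psat1, the next enzyme of that pathway, passed with Trim AG (1.06) and Trim AGU (0.75). Mitochondrial Shmt2 was called with all 5 mimics (0.75, 0.72, 0.77, 1.00 and 0.72 in the order of the groups), whereas Mthfd2, the next mitochondrial one-carbon enzyme, was called only with Trim AG (0.77) and Trim AGU (0.65, not called without MC replicate 2 or 3, the value nearest 0 being 0.59 and the edgeR adjusted p up to 0.053). The mitochondrial PEP carboxykinase Pck2 passed in none of the 5, with log2 fold changes from 0.03 to 0.44.

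Of the sensors, Ern1 (IRE1) was up-regulated with all 5 mimics and had the largest log2 fold change of the 40 genes with miR-125b and Plus A. It measured 33.8, 34.9 and 33.4 CPM with MC, 82.5, 83.8 and 78.3 with miR-125b and 95.7, 90.3 and 88.4 with Plus A. Ern1 was 86.8, 64.4 and 70.1 under Trim A, 92.3, 65.4 and 74.3 under Trim AG and 76.3, 37.9 and 56.2 under Trim AGU. Every mimic library was above every MC library, and the rise was 2.46-fold with miR-125b (1.30 ± 0.044, adjusted p = 2.1e-09) and 2.73-fold with Plus A. Within each of the trimmed groups replicate 1 was the highest, and the Trim AGU call (0.86) was not called without MC replicate 1, 2 or 3 or Trim AGU replicate 3, the value nearest 0 being 0.63 and the edgeR adjusted p up to 0.092. Eif2ak3 (PERK) measured 44.4, 41.4 and 39.9 CPM with MC, 48.7, 51.1 and 46.8 with miR-125b and 55.5, 51.1 and 49.6 with Plus A. Eif2ak3 was 42.8, 38.8 and 37.1 under Trim A, 28.1, 23.3 and 25.2 under Trim AG and 31.1, 15.8 and 31.2 under Trim AGU. It was lower with Trim AG (-0.65 ± 0.087, adjusted p = 0.00024), with no overlap with MC. Trim AGU also lay wholly below MC (-0.57 ± 0.22), but its adjusted p of 0.093 by edgeR did not pass, and the other mimics were not called either. Atf6 measured 119.6, 115 and 121 CPM with MC, 109, 114 and 112 with miR-125b and 138, 126 and 127 with Plus A. Atf6 was 128, 107 and 103 under Trim A, 155, 148 and 147 under Trim AG and 131, 57.5 and 116 under Trim AGU. It was called with none, the log2 fold changes lying between -0.10 and 0.40. Trim AGU replicate 2 was the lowest library for all 3 sensors among the Trim AGU libraries.

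On the ATF6/XBP1 side, the number of 19 genes called higher was 6 under miR-125b, 6 under Plus A, 8 under Trim A, 6 under Trim AG and 7 under Trim AGU. Xbp1, Hspa5, Dnajb9 and Creld2 were called higher with all 5 mimics, Creld2 with Plus A being not called without MC replicate 1 or Plus A replicate 3, the value nearest 0 being 0.55. By mean CPM, without TMM factors, Hspa5 with miR-125b and Xbp1 with Trim AGU lay less than 1.5-fold above MC. Hspa5 measured 608, 615 and 601 CPM with MC, 913, 900.3 and 903 with miR-125b and 979, 952 and 929 with Plus A. Hspa5 was 938, 1038 and 1027 under Trim A, 1085, 1178 and 1086 under Trim AG and 983, 1012 and 1062 under Trim AGU. All mimic libraries lay above all MC libraries, by 1.53-fold with miR-125b and 1.92-fold with Trim AG (0.94 ± 0.074, adjusted p = 1.4e-05) after TMM scaling. Xbp1 mRNA measured 96.1, 89.5 and 94.999 CPM with MC, 152, 146 and 145 with miR-125b and 151, 142 and 138 with Plus A. Xbp1 was 146, 164 and 174 under Trim A, 182, 187 and 185 under Trim AG and 132, 136 and 142 under Trim AGU. MC was again the lowest group without overlap, and Trim AG the highest (1.05 ± 0.07).

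Dnajb9 (ERdj4), a co-chaperone of BiP, measured 41.2, 38.5 and 42.6 CPM with MC, 61.6, 66.1 and 58.9 with miR-125b and 68.9, 68.2 and 66.6 with Plus A. Dnajb9 was 69.95, 84.8 and 84.04 under Trim A, 89.1, 102 and 92.5 under Trim AG and 61.6, 54.8 and 72.1 under Trim AGU. All mimic libraries lay above MC for this gene. Creld2, an ER protein induced by stress, measured 41.8, 47.3 and 42.9 CPM with MC, 72.5, 70.6 and 72.1 with miR-125b and 61.4, 65.4 and 73.6 with Plus A. Creld2 was 71.9, 84.4 and 82.9 under Trim A, 81.4, 90.3 and 89.7 under Trim AG and 68.9, 79.5 and 70.3 under Trim AGU. It did not overlap MC either. Their rises were 0.65 and 0.74 with miR-125b and 1.28 and 1.05 with Trim AG. Dnajc3 (p58IPK), a co-chaperone that also restrains PERK, measured 50.02, 42.1 and 45.9 CPM with MC, 63.2, 66.4 and 66.6 with miR-125b and 70.4, 66.1 and 61.2 with Plus A. Dnajc3 was 65.7, 86.1 and 83.7 under Trim A, 91.8, 124 and 105 under Trim AG and 77.1, 107 and 85.7 under Trim AGU. Its libraries did not overlap MC, and it passed in the 3 trimmed groups, at 0.82, 1.28 ± 0.12 and 1.12 from the longest to the shortest form. The secreted ER factor Manf followed the same 3 mimics (0.86, 1.14 and 1.00, the last not called without MC replicate 3, the value nearest 0 being 0.82 and the edgeR adjusted p up to 0.054).

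Herpud1, which helps assemble the ER degradation machinery, measured 109, 119 and 115 CPM with MC, 191, 201 and 197 with miR-125b and 226, 215 and 218 with Plus A. Herpud1 was 209, 177 and 178 under Trim A, 192, 145 and 155 under Trim AG and 155, 157 and 129.9 under Trim AGU. Every mimic library exceeded MC, and the calls were miR-125b (0.82 ± 0.038), Plus A (0.96) and Trim A (0.76), while Trim AG (0.58) and Trim AGU (0.51) stayed under 1.5-fold. Canx, a lectin chaperone of the ER membrane, was called with miR-125b (0.79), Plus A (0.84), Trim A (1.06) and Trim AGU (0.65, not called without MC replicate 1, 2 or 3, the value nearest 0 being 0.60 and the edgeR adjusted p up to 0.062), and stood at 0.09 with Trim AG. Edem1, which directs misfolded glycoproteins to degradation, fell with miR-125b (-0.62), Plus A (-0.60, not called without MC replicate 3 or Plus A replicate 1 or 2, the value nearest 0 being -0.58) and Trim A (-1.09 ± 0.09). Sel1l, a partner of the degradation ligase, fell with Trim AG (-0.59), and was not called without Trim AG replicate 2 or 3, the value nearest 0 being -0.50. Sdf2l1, a BiP-associated protein, measured 10.3, 9.71 and 10.3 CPM with MC, 13.2, 12.9 and 13.3 with miR-125b and 6.22, 10.2 and 10.5 with Plus A. Sdf2l1 was 13.5, 13.2 and 16.8 under Trim A, 14.4, 14.05 and 13.5 under Trim AG and 11.2, 9.79 and 12.2 under Trim AGU. It was not called with any mimic. The disulfide isomerases Pdia3, Pdia4 and Pdia6 were called with none, their log2 fold changes all lying between -0.36 and 0.29.

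**Figure D2:**
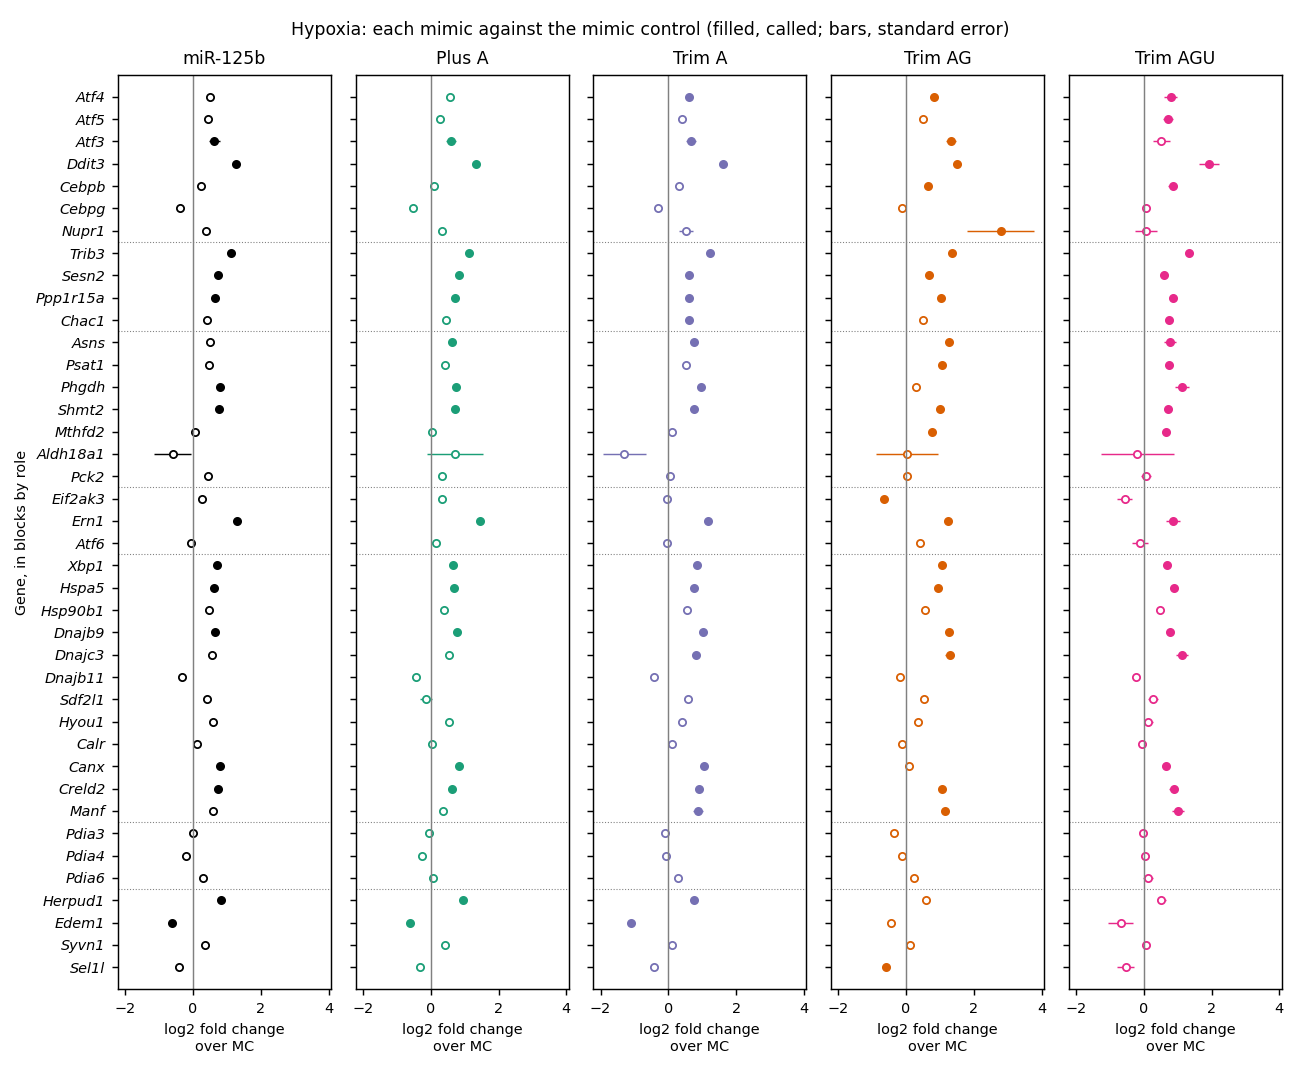
Log2 fold change of each gene against MC in hypoxia (x axis) for the 5 mimics, with bars of 1 standard error and filled points for called genes. Trib3, Ddit3 and Ern1 lie right of 0 with every mimic, the disulfide isomerases lie near 0, and the wide bars belong to Nupr1 and Aldh18a1.

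Nupr1 and Aldh18a1 need separate treatment. Nupr1, a small chromatin-associated stress protein, measured 11.9, 13.1 and 13.2 CPM with MC and 226, 13.5 and 15.7 with Trim AG in hypoxia. Only Trim AG replicate 1 stood out, and without it the log2 fold change of Trim AG over MC fell from 2.79 to 0.27 (edgeR adjusted p = 0.053). In normoxia Nupr1 measured 4.42, 5.01 and 95.9 with miR-125b, where replicate 3 stood out. Aldh18a1 measured 6.02, 1.21 and 11.4 CPM with MC, 3.47, 5.36 and 3.10 with miR-125b and 23.7, 3.51 and 2.98 with Plus A. Aldh18a1 was 2.09, 1.99 and 3.22 under Trim A, 1.67, 14.5 and 1.76 under Trim AG and 2.19, 0.628 and 12.4 under Trim AGU. In normoxia it measured 2.81, 11.3 and 6.15 CPM with miR-125b and 3.77, 2.82 and 2.99 with Plus A. Aldh18a1 was 25.1, 2.82 and 2.97 under Trim A, 11.5, 2.40 and 2.55 under Trim AG and 3.29, 1.59 and 2.08 under Trim AGU. In hypoxic Plus A, Trim AG and Trim AGU and in normoxic Trim A and Trim AG 1 library lay several times above the other pair, and the gene was called in none of the comparisons against MC. Without hypoxic Trim AG replicate 2, the difference of Trim AG from MC turned from 0.02 to -1.80 (edgeR adjusted p = 0.044).

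Compared with miR-125b rather than MC in hypoxia, none of these genes was called with Plus A, Trim A or Trim AGU. With Trim AG 7 of 40 were called, 5 higher and 2 lower, where 7.85% of all genes were higher and 11.5% lower. All mimics were given at the same dose, and these 4 comparisons share the 3 miR-125b libraries. With Plus A, 0 of 40 genes were called by edgeR (0.707% of all genes higher and 1.32% lower), with 9 at an unadjusted p below 0.05 and 0 called by DESeq2. With Trim A, 0 were called (0.457% and 0.417% of all genes), with 11 at an unadjusted p below 0.05 and 0 by DESeq2. With Trim AGU, 0 were called (1.83% and 1.93% of all genes), with 11 at an unadjusted p below 0.05 and 3 by DESeq2, namely Cebpb, Mthfd2 and Eif2ak3. Leaving out Plus A replicate 3 gave 1 call for Plus A, and leaving out Trim AGU replicate 1 or 2 gave 4 or 1 for Trim AGU. Intervals of 2 standard errors on either side for Plus A minus miR-125b ran -0.11 to 0.10 for Trib3, -0.04 to 0.18 for Ddit3 and -0.01 to 0.13 for Hspa5 on the log2 scale. For Trim A they ran -0.02 to 0.23, 0.08 to 0.56 and 0.01 to 0.29, and for Trim AGU 0.00 to 0.43, 0.07 to 1.20 and 0.04 to 0.49, in the same order of genes.

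Trim AG, which lacks the last 2 bases of miR-125b, had 5 genes higher and 2 lower than miR-125b in hypoxia (7.85% and 11.5% of all genes). The higher genes were Asns (0.75 ± 0.093), Dnajc3 (0.73 ± 0.12), Mthfd2 (0.69), Atf3 (0.69) and Dnajb9 (0.62, not called without Trim AG replicate 2, the value nearest 0 being 0.55). The lower genes were Eif2ak3 (-0.92 ± 0.082, adjusted p = 0.00011) and Canx (-0.71 ± 0.082). Trib3 and Ddit3 differed from miR-125b by 0.23 and 0.24, below the limit. With replicate 1 alone, 0 genes were called under Trim A, 7 under Trim AG and 2 under Trim AGU. Pairs of isomiRs were not tested against each other, so where a group is described as highest or lowest, this is an order of measured values only.

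In normoxia, many ATF4-side genes were lower with Trim AG and Trim AGU than with miR-125b, led by Trib3 and Ddit3. With Trim AG, 13 of 40 genes were called lower and 0 higher (6.36% and 7.58% of all genes), and with Trim AGU 13 were lower and 1 higher (5.16% and 6.22%). By side, 10 and 12 of 18 ATF4-side genes were lower, against 2 and 1 of 19 ATF6/XBP1-side genes. The ATF4-side medians were -0.73 and -0.92, the ATF6/XBP1-side medians -0.11 and -0.01, and the medians over all genes 0.00 and -0.01. These comparisons share the normoxic miR-125b libraries, of which replicate 1 stood with the Plus A group for Cav1 and Atf5. Lower here means lower than with miR-125b, and how the trimmed groups stood to normoxic MC was not tested. Of 8 muscle genes tested, 3 were higher in Trim AG and 2 in Trim AGU, and their part in the result was not tested.

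In normoxia Trib3 measured 153, 158 and 166 CPM with miR-125b and 154, 161 and 169 with Plus A. Trib3 was 131, 105 and 119 under Trim A, 47.2, 38.6 and 43.997 under Trim AG and 50.5, 38.4 and 48.8 under Trim AGU. All Trim AG and Trim AGU libraries were below all others, and Trib3 was 3.79-fold lower with Trim AG (-1.92 ± 0.076, adjusted p = 2.3e-06) and 3.48-fold lower with Trim AGU (-1.80 ± 0.11, adjusted p = 0.0001). Ddit3 measured 78.3, 78.1 and 76.8 CPM with miR-125b and 73.2, 74.3 and 69.5 with Plus A. Ddit3 was 52.6, 53.1 and 54.1 under Trim A, 21.8, 25.5 and 24.8 under Trim AG and 31.8, 29.1 and 29.8 under Trim AGU. None of the other 4 groups overlapped miR-125b, Plus A lying closest, and Ddit3 fell by 1.74 with Trim AG and dropped by 1.37 with Trim AGU on the log2 scale. Atf4 measured 679.6, 712 and 662 CPM with miR-125b and 645, 688 and 668 with Plus A. Atf4 was 606, 558 and 563 under Trim A, 485, 463 and 487 under Trim AG and 441, 435 and 427 under Trim AGU. The libraries of Trim AG and Trim AGU were all below the rest, and the call was made with Trim AGU (-0.66 ± 0.07), the Trim AG difference of -0.56 being under 1.5-fold. Atf3 measured 2.40, 3.79 and 3.65 CPM with miR-125b and 3.35, 2.24 and 2.86 with Plus A. Atf3 was 3.31, 2.59 and 2.69 under Trim A, 2.85, 2.37 and 2.29 under Trim AG and 2.67, 2.76 and 1.95 under Trim AGU, with overlapping groups and no call.

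In normoxia Asns measured 223, 218 and 203 CPM with miR-125b and 192, 221 and 220.1 with Plus A. Asns was 199.5, 168 and 183 under Trim A, 119, 115 and 134 under Trim AG and 106, 106 and 97.8 under Trim AGU. Trim AG and Trim AGU were again the lowest groups, by -0.86 ± 0.07 and -1.06 ± 0.077. Sesn2 measured 208, 221 and 224 CPM with miR-125b and 218, 221 and 236 with Plus A. Sesn2 was 176, 149 and 155 under Trim A, 113, 99.4 and 111 under Trim AG and 101, 87.8 and 103 under Trim AGU. Its Trim A libraries lay between miR-125b and the shorter forms, with no overlap. Chac1 measured 93.4, 92.1 and 94.7 CPM with miR-125b and 84.9, 100.4 and 105 with Plus A. Chac1 was 93.3, 85.96 and 86.5 under Trim A, 50.9, 50.4 and 50.2 under Trim AG and 53.6, 44.2 and 47.5 under Trim AGU. Both shorter forms lay below all other libraries, at -0.93 and -0.95. Ppp1r15a measured 72.8, 77.9 and 91.2 CPM with miR-125b and 83.5, 80.4 and 89.5 with Plus A. Ppp1r15a was 72.7, 65.6 and 63.3 under Trim A, 65.99, 61.6 and 59.8 under Trim AG and 65.2, 47.5 and 54.9 under Trim AGU. It was not called with the shorter forms, at -0.41 and -0.54. Pck2 fell with both (-0.98 and -1.24), as did Phgdh (-1.32 and -0.88), Atf5 (-1.08 and -0.93) and Shmt2 (-0.60, not called without miR-125b replicate 1 or Trim AG replicate 2, the value nearest 0 being -0.54, and -0.91). Atf5 measured 561, 717 and 719 with miR-125b and 718, 601 and 619 with Plus A, replicate 1 of each standing with the other group. The Nupr1 call with Trim AG (-3.13) was not called without miR-125b replicate 3 or Trim AG replicate 1, 2 or 3, the value nearest 0 being -0.24 and the edgeR adjusted p up to 0.65, and that with Trim AGU (-3.70) was not called without Trim AGU replicate 1, 2 or 3, the value nearest 0 being -0.81 and the edgeR adjusted p up to 0.11. The Aldh18a1 call with Trim AGU (-1.55) was not called without miR-125b replicate 2 or 3 or Trim AGU replicate 2 or 3, the value nearest 0 being -0.95 and the edgeR adjusted p up to 0.13.

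Of the sensors and the ATF6/XBP1-side genes, few were called in normoxia. Eif2ak3 measured 45.2, 45.2 and 47.2 CPM with miR-125b and 45.7, 43.8 and 42.5 with Plus A. Eif2ak3 was 37.6, 38.98 and 38.98 under Trim A, 23.3, 26.3 and 26.1 under Trim AG and 28.8, 36.3 and 31.5 under Trim AGU. All libraries of the trimmed isomiRs lay below those of miR-125b, and Eif2ak3 was called lower with Trim AG (-0.91 ± 0.065), while the Trim AGU difference was -0.52. Ern1 measured 49.2, 56.9 and 53.9 CPM with miR-125b and 56.4, 50.1 and 50.8 with Plus A. Ern1 was 49.05, 35.996 and 45.9 under Trim A, 39.7, 35.9 and 36.96 under Trim AG and 37.5, 39.4 and 38.2 under Trim AGU. All Trim AG and Trim AGU libraries lay below miR-125b. Atf6 measured 68.1, 72.3 and 72.5 CPM with miR-125b and 71.5, 65.2 and 71.2 with Plus A. Atf6 was 73.4, 71.5 and 71.8 under Trim A, 71.1, 80.7 and 73.4 under Trim AG and 66.1, 88.7 and 80.1 under Trim AGU. Neither was called with any isomiR in normoxia. Herpud1 measured 140.2, 153 and 145 CPM with miR-125b and 142, 152 and 159 with Plus A. Herpud1 was 133, 121 and 126 under Trim A, 86.2, 84.9 and 92.3 under Trim AG and 83.1, 83.3 and 75.9 under Trim AGU. Its Trim AG and Trim AGU libraries lay below the rest, at -0.78 ± 0.058 and -0.86 ± 0.077.

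Canx was lower with Trim AG in normoxia (-1.19 ± 0.052) and Edem1 was higher with Trim AGU (0.70 ± 0.094). Hspa5 measured 830.0, 805 and 851 CPM with miR-125b and 783, 839.6 and 844 with Plus A. Hspa5 was 793, 842 and 812 under Trim A, 769, 817 and 787 under Trim AG and 823, 857 and 797 under Trim AGU. The 5 groups overlapped, and intervals of 2 standard errors ran -0.21 to -0.02 for Trim AG and -0.15 to 0.12 for Trim AGU. Xbp1 measured 133, 153 and 135 CPM with miR-125b and 141, 137 and 141 with Plus A. Xbp1 was 139, 125 and 132 under Trim A, 122, 118 and 120.5 under Trim AG and 110.3, 106 and 108 under Trim AGU. Its lowest group was Trim AGU, at -0.39, not called. Dnajb9 measured 39.3, 36.6 and 42.2 CPM with miR-125b and 34.98, 38.8 and 38.1 with Plus A. Dnajb9 was 35.2, 29.3 and 34.04 under Trim A, 32.2, 28.96 and 29.004 under Trim AG and 30.9, 31.8 and 27.7 under Trim AGU. All libraries of its trimmed groups lay below those of miR-125b. Dnajc3 measured 54.2, 58.1 and 59.01 CPM with miR-125b and 56.3, 54.000 and 51.2 with Plus A. Dnajc3 was 55.3, 57.05 and 56.5 under Trim A, 61.5, 60.3 and 60.9 under Trim AG and 55.7, 66.7 and 56.1 under Trim AGU. Of its groups only Trim AG lay wholly above miR-125b. Creld2 measured 57.4, 63.8 and 62.5 CPM with miR-125b and 63.4, 60.1 and 56.7 with Plus A. Creld2 was 64.4, 65.5 and 65.1 under Trim A, 64.4, 60.3 and 62.3 under Trim AG and 72.5, 57.9 and 66.6 under Trim AGU. Both shorter forms overlapped miR-125b. Sdf2l1 measured 15.9, 17.96 and 15.9 CPM with miR-125b and 19.5, 16.5 and 18.8 with Plus A. Sdf2l1 was 18.6, 19.2 and 18.9 under Trim A, 22.2, 16.9 and 18.5 under Trim AG and 25.05, 15.3 and 22.7 under Trim AGU. None of these 4 chaperone genes was called in normoxia.

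Against miR-125b in normoxia, no gene was called with Plus A or Trim A. With Plus A, 0 of 40 genes and 0 of all genes tested were called by edgeR (0%), with 1 of the 40 at an unadjusted p below 0.05 and 0 called by DESeq2. With Trim A, 0 were called by edgeR (0.367% of all genes higher and 0.0475% lower), with 20 at an unadjusted p below 0.05 and 0 by DESeq2. With Trim A, 4 ATF4-side genes were lower by adjusted p alone (0.489% of all genes), and Trib3 stood at -0.42 ± 0.079, Ddit3 at -0.54 ± 0.05 and Sesn2 at -0.43 ± 0.07. For Plus A the intervals of 2 standard errors ran -0.09 to 0.15 for Trib3 and -0.20 to 0.00 for Ddit3. Between the groups as labelled, this leaves out a 1.5-fold change of these genes in either direction. The Plus A values include replicate 1 of both groups, each of which stood with the other group for Cav1 and Atf5. Cav1 was 102, 282 and 263 CPM with miR-125b and 269, 98.0 and 98.3 with Plus A. In hypoxia it was 241, 246 and 241 CPM with miR-125b and 100, 93.9 and 94.5 with Plus A. Whether the normoxic replicate 1 libraries of these groups were exchanged was not tested. With both replicate 1 libraries left out, 1 of the 40 genes was called, and their part in the spread was not tested.

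**Figure D3:**
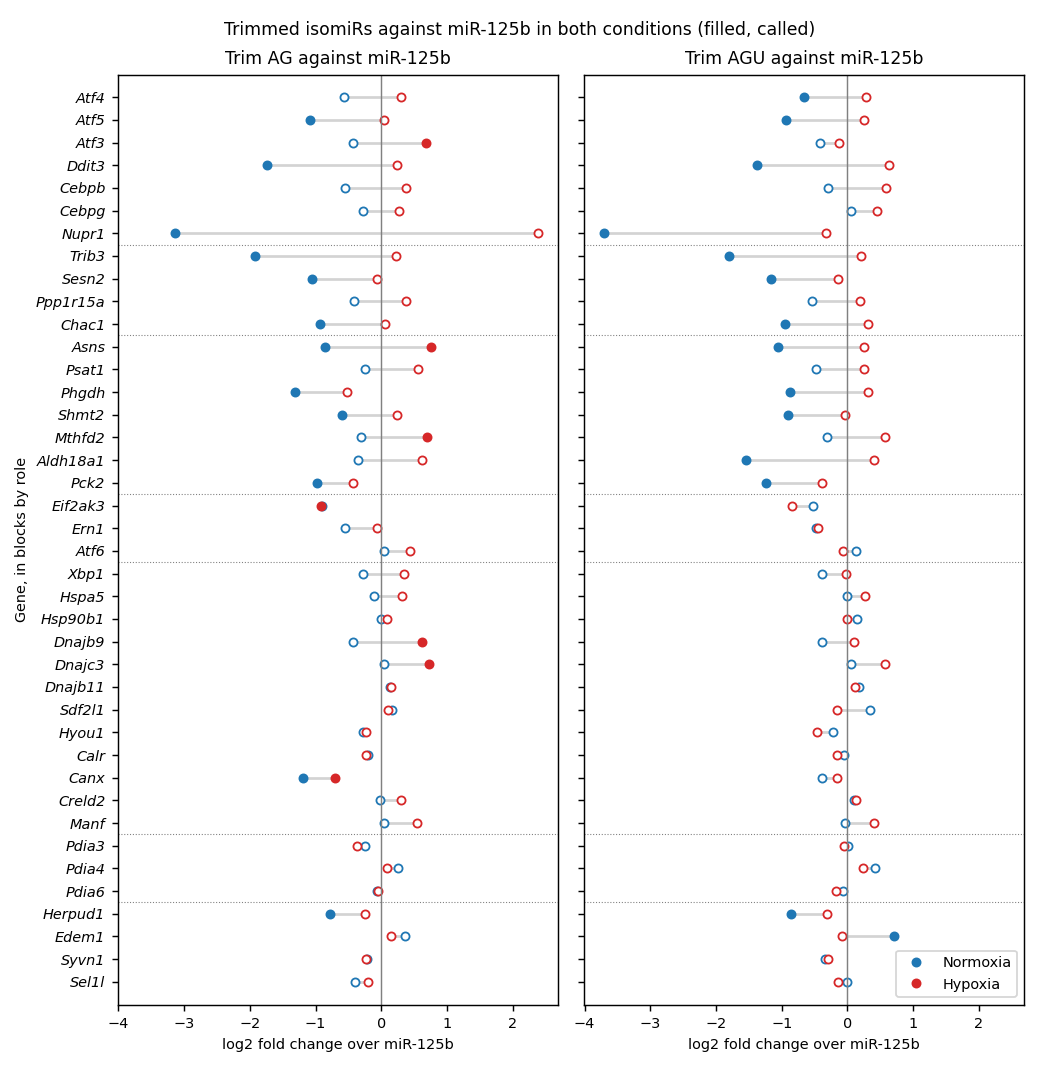
Log2 fold change of Trim AG (left) and Trim AGU (right) against miR-125b for each gene, in normoxia (blue) and hypoxia (red), joined by a grey line, with filled points for called genes. In the 3 ATF4-side blocks most blue points lie left of 0 and most red points at or right of 0, with Trib3 at -1.92 and 0.23 for Trim AG. Pairs of points in the ATF6/XBP1-side blocks mostly lie closer together than these, but red points of Dnajb9, Dnajc3 and Xbp1 lie clearly right of blue for Trim AG.

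In hypoxia compared with normoxia, within a mimic, Trib3, Ddit3, Ppp1r15a and Atf3 were higher with all 5 mimics, and Pdia3 was lower. With miR-125b, 4 of 40 genes were called higher in hypoxia and 2 lower (9.34% and 11.5% of all genes). The counts were 8 and 6 with Plus A (10% and 12.8%), 11 and 4 with Trim A (12% and 14.5%), 23 and 3 with Trim AG (15% and 17.8%) and 19 and 5 with Trim AGU (13.6% and 13.4%). On the ATF4 side 4, 5, 9, 15 and 15 of 18 genes were higher, in the same order. The Trim AGU total fell from 24 to 14 without normoxic Trim AGU replicate 3. With replicate 1 alone of the hypoxic trimmed groups the totals were 17, 25 and 26 in place of 15, 26 and 24.

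Trib3 rose 2.85-fold in hypoxia with miR-125b (1.51 ± 0.044) and 12.9-fold with Trim AG (3.69 ± 0.10, adjusted p = 1.7e-07). Ddit3 rose by 1.40 under miR-125b, 1.56 under Plus A, 2.26 under Trim A, 3.39 under Trim AG and 3.42 under Trim AGU. Ppp1r15a was called higher in all 5 (1.14 to 1.97), and Atf3 in all 5 (0.87 to 2.01), the Trim AGU call of Atf3 being not called without normoxic Trim AGU replicate 1, 2 or 3, the value nearest 0 being 0.96 and the edgeR adjusted p up to 0.08. Atf4 passed in the 3 trimmed groups (0.65, 1.20 and 1.27) and stood at 0.30 with miR-125b. Pck2 was lower in hypoxia with miR-125b (-0.62, not called without hypoxic miR-125b replicate 2, the value nearest 0 being -0.58), Plus A (-0.78) and Trim A (-0.65). Nupr1 measured 4.09, 4.70 and 4.28 CPM in normoxia and 11.9, 22.9 and 17.9 in hypoxia with Trim A, and 2.74, 3.17 and 2.21 and then 6.79, 12.4 and 17.2 with Trim AGU. It was called higher in hypoxia with both (1.94 and 2.21), with Plus A (1.06) and, with its outlying hypoxic replicate 1, with Trim AG (4.37).

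Among the sensors, Atf6 was higher in hypoxia with Plus A (0.80) and Trim AG (1.00), and Ern1 with Plus A (0.69), Trim A (0.68, not called without normoxic Trim A replicate 2 or hypoxic Trim A replicate 1, the value nearest 0 being 0.56) and Trim AG (1.05). Eif2ak3 was called in none, with values from -0.29 to 0.13. On the ATF6/XBP1 side, Dnajb9 was higher with all 4 isomiRs (0.76 to 1.66). The disulfide isomerase Pdia3 was lower in hypoxia with all 5 mimics (-0.77 to -0.66), the Trim AGU call being not called without normoxic Trim AGU replicate 1, 2 or 3 or hypoxic Trim AGU replicate 3, the value nearest 0 being -0.64 and the edgeR adjusted p up to 0.061. In normoxia its values were 1105, 1207 and 1123 CPM with miR-125b and 1113, 1093 and 1111 with Plus A. Pdia3 was 1115, 1058 and 1037 under Trim A, 969, 1029 and 999 under Trim AG and 1128, 1273 and 1091 under Trim AGU. In hypoxia the values were 770.2, 764 and 771 CPM with miR-125b and 802, 728 and 721 with Plus A. Pdia3 was 723, 692 and 697 under Trim A, 599.9, 582 and 574 under Trim AG and 681, 719 and 684 under Trim AGU, all below every normoxic library. Calr was lower with Plus A (-0.62), Trim A (-0.59, not called without normoxic Trim A replicate 1 or hypoxic Trim A replicate 1, the value nearest 0 being -0.57) and Trim AGU (-0.61, not called without normoxic Trim AGU replicate 1, 2 or 3 or hypoxic Trim AGU replicate 1 or 3, the value nearest 0 being -0.57 and the edgeR adjusted p up to 0.083). Hspa5 was called in none (0.04 to 0.50).

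**Figure D4:**
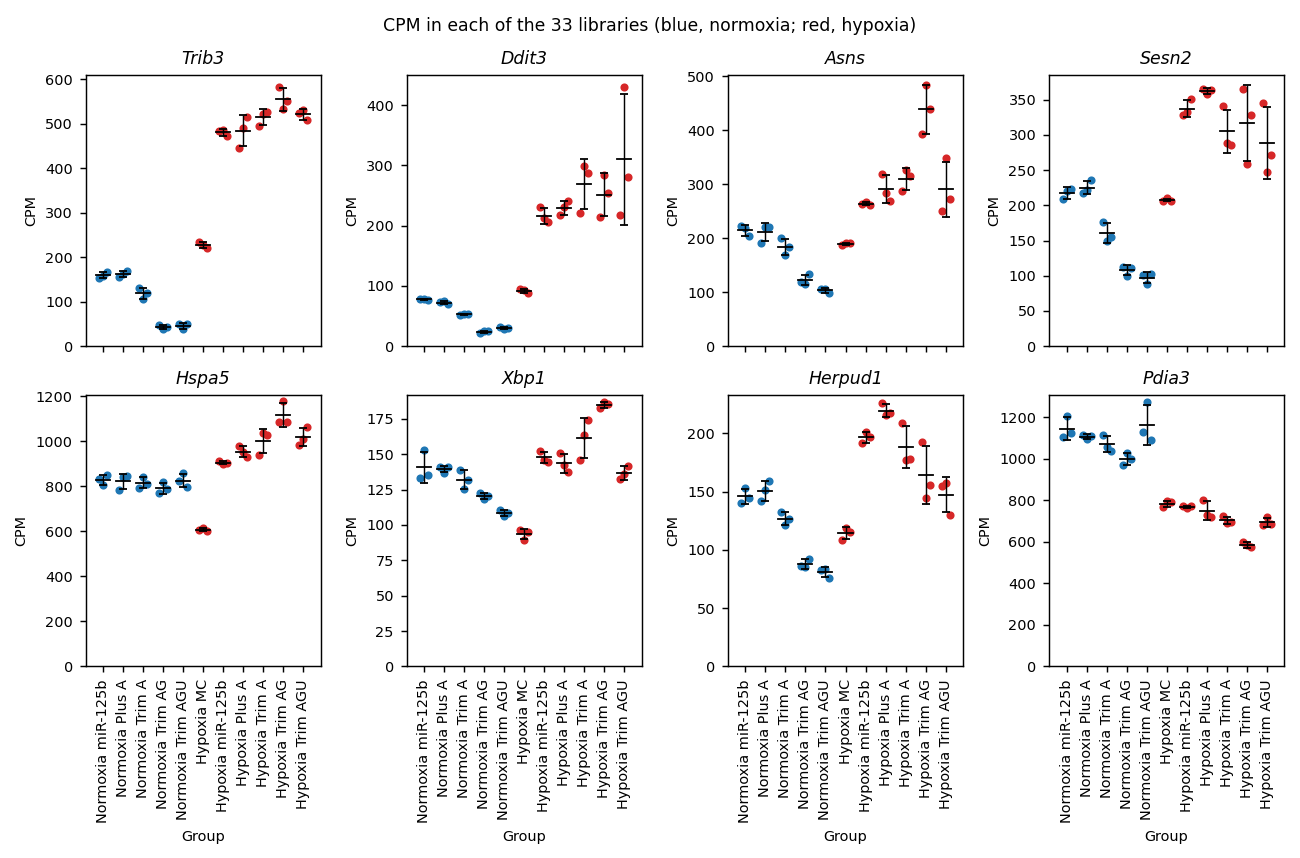
CPM of 8 genes in each of the 33 libraries (points, normoxia blue and hypoxia red), with the mean as a line and the SD as a bar for each group of 3. Trib3, Ddit3, Asns and Sesn2 are lowest in normoxic Trim AG and Trim AGU, Hspa5 and Xbp1 are lowest in hypoxic MC, and Pdia3 is lower in all hypoxic than in all normoxic libraries.

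Whether the isomiR effect itself differed between normoxia and hypoxia was tested as an interaction, the hypoxic difference from miR-125b minus the normoxic one. With Trim AG, 18 of 40 genes passed, all toward higher in hypoxia (4.29% of all genes tested higher and 6.97% lower), and 15 of these stayed called without each library in turn. With hypoxic replicate 1 alone, 19 genes were called for Trim AG, 11 for Trim AGU and 0 for Trim A. By side the 18 genes were 15 of 18 ATF4-side genes, 0 of 3 sensors and 3 of 19 ATF6/XBP1-side genes, namely Dnajb9 (1.05), Dnajc3 (0.67, not called without hypoxic Trim AG replicate 2, the value nearest 0 being 0.54) and Xbp1 (0.60, not called without normoxic miR-125b replicate 2 or hypoxic Trim AG replicate 2, the value nearest 0 being 0.54). The median interaction with Trim AG was 0.97 on the ATF4 side, 0.07 on the ATF6/XBP1 side and -0.02 over all genes tested. Within the ATF6/XBP1 side it was 0.36 for Xbp1 and the ER chaperones. It was -0.14 for the disulfide isomerases and 0.09 for ER-associated degradation. Trib3 had an interaction of 2.14 ± 0.10 (adjusted p = 1.3e-07), Ddit3 of 1.96 ± 0.14 (adjusted p = 8.7e-06) and Asns of 1.60 ± 0.12 (adjusted p = 1.2e-05). With Trim AGU, 11 genes passed, all on the ATF4 side and all higher (0.612% of all genes higher and 0.354% lower), led by Trib3 (2.05 ± 0.16, adjusted p = 0.00046) and Ddit3 (2.05 ± 0.33, adjusted p = 0.019).

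The Trim AGU interaction depended on single libraries, and only Trib3 and Chac1 stayed called without each library in turn. The count was 5, 4 and 4 without normoxic miR-125b replicate 1, 2 or 3, 2, 3 and 3 without hypoxic miR-125b replicate 1, 2 or 3, 6 and 4 without normoxic Trim AGU replicate 2 or 3, and 17 without hypoxic Trim AGU replicate 1. With Trim A, 1 gene passed, Ddit3 (0.87 ± 0.14, adjusted p = 0.02, beside 0.122% of all genes higher and 0.483% lower), and it was not called without normoxic miR-125b replicate 1, 2 or 3 or normoxic Trim A replicate 2 or 3 or hypoxic miR-125b replicate 2 or 3 or hypoxic Trim A replicate 3, the value nearest 0 being 0.78 and the edgeR adjusted p up to 0.081. With Plus A, 0 passed by edgeR (0.00642% of all genes higher and 0.0128% lower), with 5 at an unadjusted p below 0.05 and 1 called by DESeq2.

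The normoxic MC group could be set beside Plus A only through the authors' group means of normalised counts, which carry no replicate values and allow no test. By these means, 14 of 18 ATF4-side genes were at least 1.5-fold higher with Plus A and 0 lower, against 8.17% and 10.7% of the 11976 genes with a mean of 50 or more. Trib3 had means of 4809 with Plus A and 678 with MC, Ddit3 2148 and 632, and Asns 6266 and 1980. Of the ATF6/XBP1-side genes 2 were higher (Herpud1 and Canx) and 3 lower (Edem1, Dnajb11 and Pdia4), and the median log2 ratio was 1.33 on the ATF4 side and 0.02 on this side. Ern1 had a ratio of 2.11, and Hspa5 of 1.13.

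Related genes outside the 40 were read from lists of the same pathways, and their counts stand beside the shares of all genes called. In hypoxia against MC those shares ran from 9.43% to 17% higher and 12.4% to 20.2% lower over the 5 mimics. In normoxia against miR-125b, 6.36% of all genes were lower in Trim AG and 5.16% in Trim AGU. Of 12 cytosolic aminoacyl-tRNA synthetases, many of them ATF4 targets, 6 were higher with miR-125b than MC in hypoxia, led by Iars (1.18), Nars (0.84) and Yars (0.73), and the median was 0.55. The number higher was 7 under Plus A, 6 under Trim A, 9 under Trim AG and 8 under Trim AGU, and 1 was lower, Wars in Trim AG. In normoxia, 6 of 12 were lower than with miR-125b in Trim AG, led by Wars (-1.12), and 6 in Trim AGU, led by Iars (-1.08).

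Of 18 other ATF4-linked genes tested, 3 were higher with miR-125b than MC in hypoxia and 0 lower, led by the serine-synthesis enzyme Psph (1.24), and the median was 0.13. The counts were 4 higher and 1 lower for Plus A, the same for Trim A, 6 and 4 for Trim AG, and 3 and 2 for Trim AGU, where the median was -0.04. Ddit4, an inhibitor of mTORC1 signalling, was lower with each of these 4 isomiRs, joined by Nfe2l1, Fgf21 and Aldh1l2 in Trim AG and by Nfe2l1 in Trim AGU. In normoxia 6 of 16 were lower in Trim AG, led by Cth (-1.62), an enzyme of cysteine synthesis, and 7 of 16 in Trim AGU, led by Cth (-1.24).

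Of 13 genes for eIF2 kinases, eIF2 and its exchange factor eIF2B, Eif2s2, the beta subunit of eIF2, was higher with miR-125b than MC in hypoxia (0.73). With Trim AG, 6 were higher, led by Eif2s2 (1.19), and 1 was lower, the kinase Eif2ak2 (PKR). The number higher was 2 under Plus A, 3 under Trim A and 5 under Trim AGU, with 0 lower. Eif2ak1, the haem-regulated kinase, was lower in hypoxia than normoxia with all 5 mimics (-0.65 to -0.95). Of 39 other genes of ER translocation, folding and degradation, 12 were higher with miR-125b than MC in hypoxia and 0 lower, led by the disulfide isomerase Pdia5 (1.37), Wfs1 (0.97) and the translocon subunit Sec61b (0.90). The counts were 9 higher and 2 lower for Plus A, 11 and 1 for Trim A, 9 and 4 for Trim AG (Os9, Mbtps2, Mbtps1 and Serp1 lower) and 8 and 1 for Trim AGU. Os9, a lectin of ER-associated degradation, was lower with each of the 4 isomiRs. In normoxia 4 of 39 were lower than with miR-125b in Trim AG and 2 in Trim AGU, beside the 6.36% and 5.16% of all genes, and none was higher. HIF targets were lower with every mimic than with MC in hypoxia for 3 to 5 of 8 genes tested, and the part of this in the results above was not tested. Vegfa, a HIF target counted with the ATF4-linked genes instead, was called with none of the 5 mimics against MC.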

How the data were processed

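RNA-seq was used on 33 of 36 libraries of H9C2 cells, 11 groups of 3. The deposited counts per gene were made by the authors. Per the labels, HISAT2 and StringTie were used, and the genome build, annotation and counting tool are not given in the sources used here. FPKM values were deposited by the authors beside the counts, and the authors' group means of DESeq2-normalised counts are a signal without replicate values. The authors' own fold changes and p-values were not used. Of 12 deposited tables, 11 held counts, and 0 per-sample columns went unused. Libraries were not stranded, so overlapping and antisense genes cannot be told apart.

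Tables were joined by gene identifier, an absent gene being 0, and CPM used library totals (28361216 to 42672584, median 29923694, so counting error is small beside the spread between libraries for all but the lowest genes). Replicate libraries differed by more than sampling noise, and unevenly. The mean chi-square per gene between replicates, higher for a worse match, was 5.56 to 6.78 in hypoxic MC and 4.75 to 5.38 in hypoxic miR-125b. It was 7.75 to 73.8 in hypoxic Trim A, 28.0 to 96 in hypoxic Trim AG and 44.8 to 219 in hypoxic Trim AGU. Each comparison was fitted over all genes with edgeR 4.0.16 in R 4.3.3 (filterByExpr, TMM, quasi-likelihood F-test, 2-sided, Benjamini-Hochberg adjustment), each standard error being the size of the log2 fold change divided by the root of F. Only the groups compared entered a fit, and interactions used 4 groups. Calls needed an adjusted p below 0.05 and a fold of at least 1.5. Alternatives were DESeq2 1.42.0, other thresholds, filters and scalings, a replicate block and leaving out libraries. Code was tested on simulated data. Tables and figures used Python 3.11.15, pandas 2.3.3, numpy 2.4.6 and matplotlib 3.10.9.

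Genes named in full were 16 fixed members and any called member among the 3 largest changes of a comparison, with other members given by their calls. The members and lists were chosen with earlier results of these data known. Nothing says that replicates were separate cultures, so p-values measure the spread between these samples, which may be technical.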

Additional observations from a re-analysis of the deposited data

Results flagged for a closer look

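The difference of an isomiR from miR-125b was not the same in hypoxia as in normoxia for the genes below, by the edgeR interaction test (adjusted p below 0.05, fold at least 1.5). Each value is the hypoxic log2 difference from miR-125b minus the normoxic one, and all were positive. With Trim A it was Ddit3 (0.87).

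With Trim AG, the ATF4-side transcription factors were Atf4 (0.86), Atf5 (1.10), Atf3 (1.11), Ddit3 (1.96), Cebpb (0.91) and Nupr1 (5.51). Nupr1 rests on hypoxic Trim AG replicate 1 and normoxic miR-125b replicate 3, each far above the other libraries of its group. The regulators were Trib3 (2.14), Sesn2 (0.98), Ppp1r15a (0.78) and Chac1 (0.98), and the enzymes Asns (1.60), Psat1 (0.79), Phgdh (0.78), Shmt2 (0.82) and Mthfd2 (0.98). On the ATF6/XBP1 side they were Xbp1 (0.60), Dnajb9 (1.05) and Dnajc3 (0.67).

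With Trim AGU, they were Atf5 (1.22), Ddit3 (2.05), Trib3 (2.05), Sesn2 (1.07), Chac1 (1.30), Asns (1.35), Psat1 (0.78), Phgdh (1.23), Shmt2 (0.90), Mthfd2 (0.93) and Pck2 (0.89), all on the ATF4 side. Of these, Trib3 and Chac1 were called whichever library was left out. The 3 interactions share the miR-125b libraries of both conditions, and the part of the single libraries in them was not tested further.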

How the results depend on the processing

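Counts below are of the 40 genes called in either direction. With no fold threshold they were, against MC in hypoxia, 36 with miR-125b, 33 with Plus A and 32 with Trim AG. Against miR-125b they were 4 (Plus A), 1 (Trim A), 23 (Trim AG) and 2 (Trim AGU) in hypoxia, and 4 (Trim A), 29 (Trim AG) and 24 (Trim AGU) in normoxia. Between hypoxia and normoxia they were 31 with miR-125b, 32 with Plus A and 29 with Trim A, and the Trim A interaction had 3. With a 2-fold threshold, 3, 3, 6, 13 and 5 were called against MC, listed from miR-125b through Plus A to the forms lacking 1, 2 and 3 bases, 0 for hypoxic Trim AG against miR-125b, 7 and 7 for normoxic Trim AG and Trim AGU, 3, 6, 6, 12 and 13 between hypoxia and normoxia, and 0, 7 and 7 for the Trim A, Trim AG and Trim AGU interactions. DESeq2 called 3 for hypoxic Trim AGU against miR-125b, 1 for the Plus A interaction and 2 for the Trim A interaction. A fit of all libraries together called 3 for hypoxic Trim AGU against miR-125b. With replicate 1 of the normoxic miR-125b and Plus A groups left out, normoxic Plus A had 1 call.

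With the replicate number as a block, the Trim A interaction had 0 calls and the Trim AGU interaction 3, and other counts stayed within 1.5 times. The libraries share only a number: every pair correlated above 0.1 in 0 of 18 comparisons (r from -0.22 to 0.111).

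With 1 library left out at a time, counts ran 15 to 17, 13 to 17, 16 to 21, 20 to 22 and 12 to 20 against MC. Against miR-125b they ran 0 to 1, 0 to 0, 7 to 9 and 0 to 4 in hypoxia, and 0 to 0, 0 to 0, 11 to 15 and 12 to 15 in normoxia. They ran 5 to 9, 13 to 16, 14 to 17, 24 to 27 and 14 to 26 between hypoxia and normoxia, and 0 to 0, 0 to 2, 17 to 18 and 2 to 17 for the interactions.

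Among genes called in the main fit or in the changed one, signs turned only for Aldh18a1 and Nupr1, whose groups hold outlying libraries. Turns of sign in genes called in neither fit were not listed. Without hypoxic Trim AG replicate 2, Aldh18a1 stood at -1.80 against MC, -1.21 against miR-125b and -1.67 against normoxia, the highest values without another library being 0.80, 1.07 and 1.29. Without normoxic miR-125b replicate 3, Nupr1 stood at 1.70 for hypoxia against normoxia with miR-125b, the lowest value without another library being -1.71. With only library 1 of each hypoxic trimmed group, chosen after seeing the data, Nupr1 stood at -0.84 for Trim AGU against MC and Aldh18a1 at -1.25 for Trim AG against miR-125b, hypoxic Trim AGU had 2 calls against miR-125b and the Trim A interaction 0. The cause of the other moves was not tested. The interactions were not fitted with all libraries together or without the count filter.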
